A study of Mus musculus with 15 samples.

Results

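RAW 264.7 cells, a mouse macrophage line that can form osteoclasts in culture, were compared after 2 days with RANKL and at the day 1 start of the series. The comparison took 4 of the 15 arrays. They are both RANKL arrays of day 2, set against the RANKL array and the control array of day 1, which were pooled as 1 start group of 2. Per the labels, all these cells grew in alpha-MEM with 10% FBS, received serum-free medium with or without RANKL on day 0, and were mononuclear when RNA was taken. No genotype, transgene or RANKL dose is given for any group, and RAW 264.7 is the single line of the series. The control cells of day 2, which had the same medium without RANKL, gave 2 arrays and are set beside the comparison throughout. RANKL cells of days 4 and 5 and control cells of days 3 to 5 are cited as later levels. The labels do not say that replicate arrays came from separate cultures, so the p-values below measure the spread between these arrays, which may be technical.

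RANKL binds the receptor RANK on macrophage precursors. The receptor signals through TRAF adaptors to NF-kB and MAP kinases, AP-1 factors and NFATc1 follow, and NFATc1 switches on the genes of the bone-resorbing osteoclast, among them those of an acid phosphatase, a collagen-cutting cathepsin and a proton pump. Macrophages also make type I interferon, whose target genes are switched on through STAT and IRF factors and which acts as a brake on osteoclast formation.

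Because 1 of the start arrays is a RANKL array, the comparison measures RANKL day 2 against a start that already holds 1 day of RANKL, and any RANKL effect at day 1 enters the spread of the start group. A further day of culture and a further day of RANKL cannot be told apart within it. Control day 2 minus start uses the same start arrays, so its values are given side by side and no likeness between the comparisons is drawn. RANKL day 2 minus control day 2 is the test of the difference between both, since the start cancels. Throughout, a change is a difference of mean log2(signal + 32), where the signal is the MAS5 value of a probe set and 32 is a constant that damps dim signals and so understates their change. Errors are limma standard errors, and the day 1 gap of a gene is RANKL day 1 minus control day 1 on the same scale, with 1 array a side and no test. With 2 arrays against 2, an exact permutation test of a single gene cannot go below p = 0.333, so the calls rest on limma's fit, which borrows spread from all 15 arrays and across probe sets.

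The cells carried most of the macrophage markers looked up, at levels that differed between markers. Of 12 macrophage markers, 11 are represented and 8 had signals over 100 on all 4 arrays. Csf1r, the M-CSF receptor, ran from 6504 to 9191, and Cd68, a lysosomal glycoprotein of macrophages, from 9228 to 10288. Others were lower at RANKL day 2. Mpeg1 was at 836 and 1679 at day 1, 338 and 295 at RANKL day 2 (-1.81) and 2828 and 3202 in control cells of day 2. Fcgr1 (258 and 256, then 169 and 95.7, -0.85), Msr1 (310 and 488, then 202 and 213, -0.81) and Itgam (142 and 128, then 42.4 and 46.2, -1.13) were lower too. None of these differences from the start passed limma's test at an adjusted p of 0.05. The day 1 arrays of Mpeg1 were themselves far apart, the RANKL array being the higher. Cd68, Lyz2 and Fcgr3 had changes above 0 (0.11, 0.05 and 0.21), and Fcgr3 stayed between 36.7 and 59.4. On the control and RANKL arrays of day 1, Cd68 read 9228 and 9387, Lyz2 10452 and 8954 and Fcgr3 36.7 and 38.1. Of 8 osteoclast markers, 5 are represented, and Acp5, Ctsk and Mmp9 were over 100 on all 4 arrays, while Calcr, the calcitonin receptor of mature osteoclasts, stayed between 3.84 and 13.6. The 2 day 1 arrays correlated at r = 0.979 across probe sets, with a median absolute difference of 0.25, and 458 probe sets lay over 2-fold apart. RANKL day 2 replicates were no closer, with r = 0.977, a median of 0.27 and 524 probe sets over 2-fold apart. The median signal was 120.5 on the control array and 103 on the RANKL array of day 1, the lowest of the 15, against 134.5 and 111.2 at RANKL day 2. The ratio of the 3' to the 5' beta-actin probe sets, which rises as RNA is degraded, was 1.23 and 1.19 at day 1 and 1.25 and 1.39 at RANKL day 2, the last being the highest of the 15 arrays. Summed signals of B cell markers were 3001 and 4469 at the start and 4602 and 4646 at RANKL day 2, and those of neutrophil markers were 712 to 803 and 849 to 1016, so both ranges were higher at RANKL day 2. Stromal and osteoblast markers summed to 1466 to 1537 at the start and 1642 to 1954 at RANKL day 2, and dendritic cell markers to 5195 to 5470 and 4823 to 5002. T cell and erythroid marker sums overlapped. In control cells of day 2, B cell markers summed to 4557 to 4898 and neutrophil markers to 954 to 1255. Stromal and osteoblast markers summed to 1580.5 to 2062 there, so these 3 ranges were above the start without RANKL too. Dendritic cell markers, at 4669 to 6134 in these control cells, overlapped the start. Fits with the beta-actin ratio as a covariate and with other scalings are given below. The part of the other differences in the results was not tested.

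Few genes moved past the threshold of an adjusted p of 0.05. Acp5, Ctsk, Ccr1 and Itgb7 rose, and Usp18, Ifit1, Pea15a and Scd1 fell. In limma's fit with Benjamini-Hochberg adjustment these 8 genes are 0.097% of the 8251 represented genes, and 12 of all 12422 probe sets (0.0966%) passed, 5 higher (0.0403%) and 7 lower (0.0564%). The 4 further probe sets belong to Igf1, Lgals9, Scd1 and Ly6d. They are not the probe sets chosen to represent those genes and were picked out after their values were seen. Without adjustment, 1014 probe sets had p under 0.05. By position alone, both RANKL day 2 arrays lay above both start arrays for 21.4% of genes and below them for 15.5%, which is the background for each count of that kind below. By sign alone, the change from the start to RANKL day 2 was above 0 for 4662 of the 8251 genes and below 0 for 3589. Those are the background for the counts by sign. In control day 2 minus start, 4 probe sets passed (0.0322%), 1 higher (0.00805%) and 3 lower (0.0242%), and 3 genes (0.0364%). In RANKL day 2 minus control day 2, 108 probe sets (0.869%) and 82 genes (0.994%) passed, and of the genes 29 were higher (0.351%) and 53 lower (0.642%). Those 108 became 33 and 19 without the first and second control day 2 arrays and 31 and 19 without the first and second RANKL day 2 arrays. The count of 12 rests on each of the 4 arrays. It was 5 without the control day 1 array, 3 without the RANKL day 1 array, and 1 and 6 without the first and second RANKL day 2 arrays. It was 26 and 28 without the first and second RANKL day 5 arrays, and the Igf1 probe set was the one call kept in every one of these fits.

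**Figure D1:**
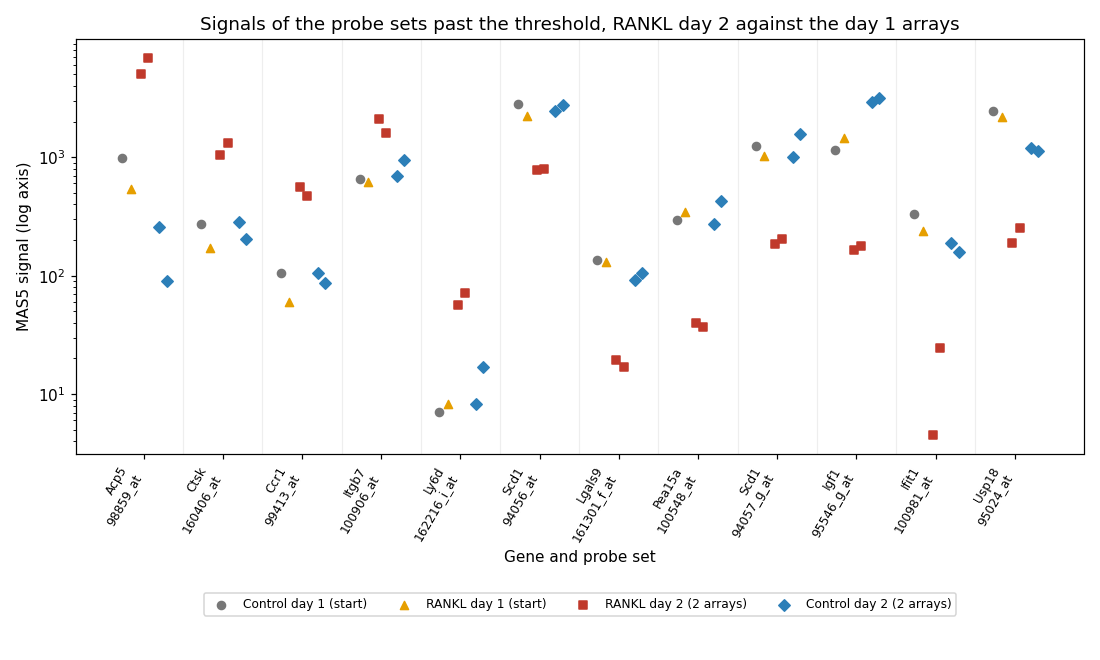
MAS5 signals on a log axis of the 12 probe sets past the threshold, for the control and RANKL arrays of day 1 (the start), both RANKL arrays of day 2 and, beside them, both control arrays of day 2; each point is 1 array. In each of the 12 probe sets both RANKL day 2 arrays lie beyond both start arrays, as with Acp5 (5066 and 6914 against 992 and 535) and Igf1 (164 and 178 against 1152 and 1455).

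The genes that rose were led by osteoclast products. Acp5 encodes tartrate-resistant acid phosphatase, the classical stain of osteoclasts. Its signal was 992 on the control and 535 on the RANKL array of day 1 and 5066 and 6914 at RANKL day 2. Both RANKL day 2 arrays were far above the start, and the RANKL array was the lower of the 2 start arrays. The rise was 2.97 ± 0.39 (SE; 2 arrays against 2), or 7.81-fold, with an adjusted p of 0.00732 in limma's fit, and the day 1 gap was -0.85. Control cells went the other way in level, to 257 and 90.6 at day 2, a difference of -2.02 with an adjusted p of 0.189. RANKL day 2 stood 4.98 above control day 2 (adjusted p = 7.56e-05, limma). The call against the start was lost without the RANKL day 1 array (2.54, adjusted p = 0.204), without the first RANKL day 2 array (3.19, 0.0804), without the second (2.74, 0.113) and with the beta-actin ratio as a covariate (2.83, 0.0549).

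Ctsk encodes cathepsin K, the protease that digests bone collagen. Its signals were 271 and 171 on the control and RANKL arrays of day 1 and 1051 and 1310 at RANKL day 2. Control cells of day 2, at 285 and 204, overlapped the start. The rise was 2.28 ± 0.27, 4.86-fold, with an adjusted p of 0.00609 in limma's fit and a day 1 gap of -0.58. RANKL day 2 lay 2.14 above control day 2 (adjusted p = 0.00443). The adjusted p of the rise was 0.0895 without the RANKL day 1 array and 0.0605 and 0.0586 without the first and second RANKL day 2 arrays.

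Ccr1 encodes a receptor for CCL3 and CCL5, chemokines that draw osteoclast precursors. It was at 106 and 60.5 on the control and RANKL arrays of day 1 and at 563 and 472 at RANKL day 2. Control cells stayed at 106 and 86.9. The rise of 2.28 ± 0.27 was 4.84-fold, with an adjusted p of 0.00609 in limma's fit and a day 1 gap of -0.58. Without the RANKL day 1 array it was 1.99 (adjusted p = 0.0791), and without the first RANKL day 2 array 2.16 (0.0804). With the 4 compared arrays alone the adjusted p was 0.104. Ccr1 belongs to the lists of macrophage markers and inflammatory mediators and was the one called member of each.

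Itgb7 encodes the beta 7 chain of leukocyte integrins. Its signals were 649 and 615 at day 1 and 2084 and 1608 at RANKL day 2, against 693 and 943 in control cells of day 2. The start arrays were close together, with a day 1 gap of -0.08. The rise was 1.49 ± 0.20, 2.81-fold (adjusted p = 0.0106, limma), and RANKL day 2 exceeded control day 2 by 1.15 (adjusted p = 0.0224). Control cells were higher by day 3, at 3592 and 4303, and RANKL cells of day 4 were at 4453 and 3483. At day 5 the control array, at 2491, lay between the RANKL arrays, at 2462 and 2692. The call was lost without the control day 1 array (adjusted p = 0.0963), the RANKL day 1 array (0.211) or the first RANKL day 2 array (0.123), and with the 4 compared arrays alone (0.0952). Its dimmer probe set read 8.21 and 13.7 at day 1 and 15.5 and 59.2 at RANKL day 2 and did not pass.

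The day 1 gap was largest, among the 8 called genes, for Acp5 (-0.85), Ccr1 (-0.58) and Ctsk (-0.58). In each the RANKL array was the lower one at day 1, on the side away from the later rise. The 3 genes stayed high later. Acp5 was at 6187 and 8863 in RANKL cells of day 4 and at 9370 and 12283 at day 5, while controls of days 3 to 5 ran from 43.5 to 109. Ctsk reached 2703 and 3585 at day 4 and 5915 and 7481 at day 5 with RANKL. Ccr1 reached 868 and 1082, then 1584 and 1402. These 3 genes thus had their highest levels with RANKL at day 5.

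**Figure D2:**
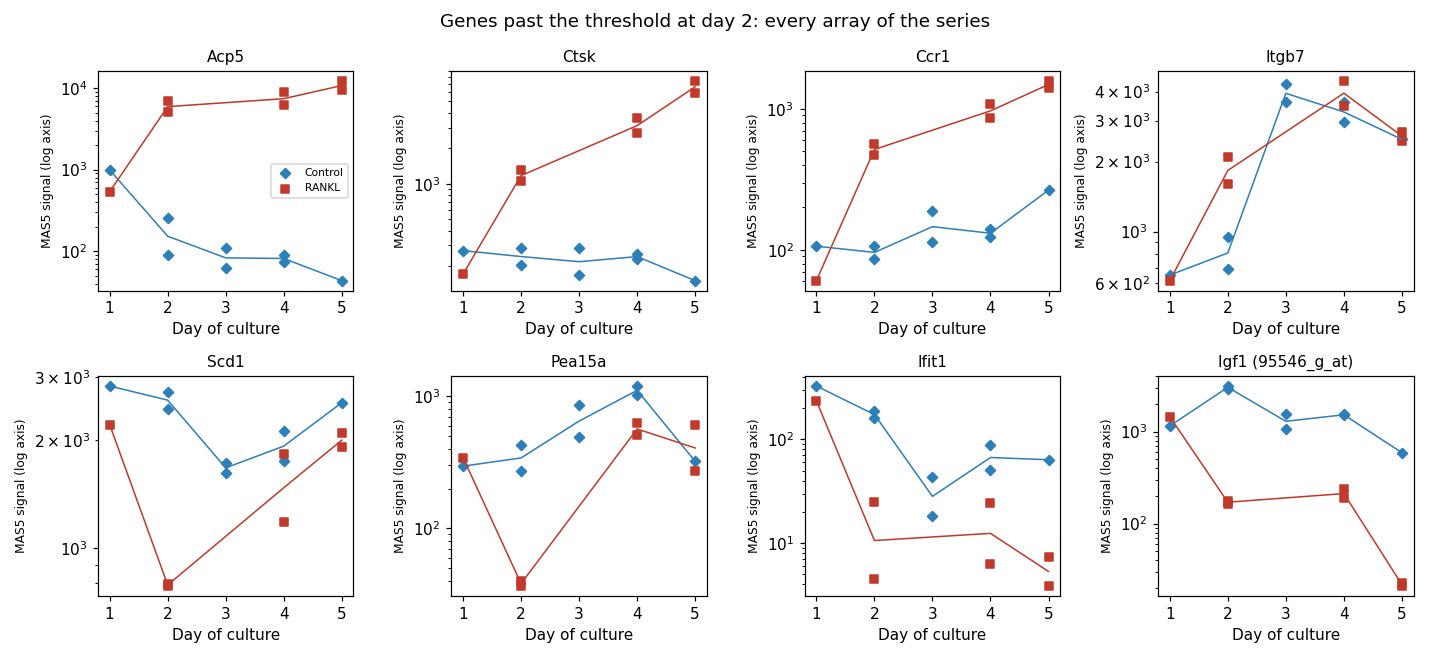
MAS5 signals on log axes against day of culture for the 7 called genes Acp5, Ctsk, Ccr1, Itgb7, Scd1, Pea15a and Ifit1, and for the called probe set of Igf1; points are arrays and lines join the geometric means of control and RANKL cells, with no RANKL value at day 3. Acp5, Ctsk and Ccr1 climb with RANKL through day 5, Scd1 is lowest at RANKL day 2 (784 and 794), and Pea15a falls to 39.8 and 36.7 at day 2 and is at 628 and 508 at day 4.

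The other osteoclast resorption genes did not pass. Of 15 represented genes of that list, 2 were called higher (0.0485% of all genes were) and none lower, the median change was 0.35 against 0.05 over all genes, and 9 had both RANKL day 2 arrays above the start, against 21.4% of all genes. Slc9b2, a sodium-proton exchanger, was at 23.4 and 39.1 at day 1 and 112 and 92.7 at RANKL day 2 (1.10, adjusted p = 0.49, day 1 gap 0.36). Mmp9, a gelatin-cutting protease of osteoclasts, was at 477 and 313 at day 1 and 709 and 628 at RANKL day 2. Its difference from the start was 0.74 ± 0.50 (95% interval -0.35 to 1.83, adjusted p = 0.761, limma) with a day 1 gap of -0.56. Control cells of day 2 were at 155 and 12.8, and RANKL day 2 exceeded them by 2.93 (adjusted p = 0.0184). The dimmer Mmp9 probe set was at 39.5 and 34.4 at day 1 and 93.8 and 63.2 at RANKL day 2. It did not pass against control day 2 (0.97, adjusted p = 0.205, limma, day 1 gap -0.11). Itgb3, the integrin chain of the osteoclast's sealing zone, differed by -0.13 with a day 1 gap of -0.09, and Calcr by -0.21 with a gap of -0.26. Tnfrsf11a, the receptor RANK itself, was at 450 and 551 at day 1 and 646 and 460 at RANKL day 2, so the groups overlapped (0.12, adjusted p = 0.956, day 1 gap 0.27).

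The proton pump that acidifies the resorption pit showed small differences of 1 sign. In the reported fit, 15 of 15 represented V-ATPase genes had a change above 0, from 0.04 (Atp6ap1) to 0.86 (Atp6ap2), and none passed the test. The median was 0.33 and 9 of 15 (60%) lay above the start on both arrays, against 21.4% of all genes. Atp6ap2, an accessory subunit, was at 491 and 339 at day 1 and 839 and 703 at RANKL day 2, with an adjusted p of 0.459 and a day 1 gap of -0.49. Tcirg1, the pump's osteoclast a3 subunit, was at 1763 and 2052 at day 1 and 3101 and 2473 at RANKL day 2 (0.53, adjusted p = 0.496, day 1 gap 0.22). Tcirg1 reached 5355 and 7419 with RANKL at day 4. Across pseudocounts, scalings, the beta-actin covariate and fits that left out 1 of the 4 arrays, the V-ATPase median ran from 0.22 to 0.44. The count above 0 was 13 when arrays were centred on their median, 14 without the control day 1 array, and 13 and 14 without the first and second RANKL day 2 arrays.

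Interferon-response genes were lower at RANKL day 2. Of 38 represented genes of this list, 37 had a change below 0, 2 were called lower (Usp18 and Ifit1) and none higher, against 4 lower calls among 8251 genes (0.0485%). The list's median was -0.93 against 0.05 over all genes, and 32 of 38 genes (84.2%) had both RANKL day 2 arrays below both start arrays, against 15.5% of all genes. Mx1, at 24.4 and 15.8 at day 1 and 25.6 and 17.5 at RANKL day 2, was the exception in sign, at 0.04, and turned negative under quantile normalization, under centring on the median and without the RANKL day 1 array. The list was chosen with earlier results of these data known, so it is not independent evidence of its direction. The median ran from -1.19 to -0.76 over pseudocounts, scalings, the covariate and fits without 1 of the 4 arrays. It was -0.85 without the control day 1 array, where 33 genes were below 0, and -1.10 without the RANKL day 1 array. In bulk RNA, fewer cells that respond to interferon and less RNA per cell cannot be told apart.

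Usp18, a protease that removes the ubiquitin-like protein ISG15 and dampens interferon receptor signalling, had the largest fall among the called genes. Its signals were 2442 and 2175 at day 1 and 189 and 251 at RANKL day 2, against 1199 and 1131 in control cells of day 2. The start arrays lay close together (day 1 gap -0.16), and the 3 groups did not overlap. The fall was -3.22 ± 0.51, 9.34-fold lower, with an adjusted p of 0.0324 in limma's fit. The difference from control day 2, -2.26, missed the threshold (adjusted p = 0.0681). The call against the start was lost in 11 of 25 alternatives, with adjusted p from 0.00378 to 0.26 over all of them. It was 0.144 without the control day 1 array, 0.26 without the RANKL day 1 array, 0.155 and 0.122 without the first and second RANKL day 2 arrays, and 0.0578 and 0.0542 without the first and second control day 2 arrays.

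Ifit1, an RNA-binding antiviral protein, was at 329 and 236 at day 1 and at 4.51 and 24.6 at RANKL day 2. Control cells kept 190 and 160. Its fall was -2.77 ± 0.34 (adjusted p = 0.00609, limma), with a day 1 gap of -0.43, and the difference from control day 2 was -2.18 (adjusted p = 0.012). Both RANKL day 2 signals lie below the constant of 32, so the fold of 6.84 understates a ratio that these dim signals cannot fix. Without the control day 1 array the adjusted p was 0.0913, without the first RANKL day 2 array 0.0804, and with the 4 compared arrays alone 0.104.

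Other members with large differences from the start did not pass. Isg15, the ubiquitin-like protein that USP18 removes, was at 2155 and 1314 at day 1 and 281 and 295 at RANKL day 2 (-2.42, adjusted p = 0.104, day 1 gap -0.70). Irf7, a factor that amplifies type I interferon, was at 1421 and 1270 and then at 243 and 229 (-2.36, adjusted p = 0.331, day 1 gap -0.16). Its replicates lay far apart elsewhere in the series, with control arrays of day 3 at 901 and 165. Isg20, an exonuclease, was at 243 and 194 at day 1, at 19.3 and 24.4 at RANKL day 2 and at 227 and 252 in control cells of day 2. It differed from the start by -2.21 (adjusted p = 0.138, day 1 gap -0.29) and from control day 2 by -2.33 (adjusted p = 0.0499). Ifih1, the cytosolic RNA sensor MDA5, was at 330 and 405, then at 132 and 111 (-1.38, adjusted p = 0.0699, day 1 gap 0.27), and lay below control day 2 as well (-1.22, adjusted p = 0.0485). Irgm1, an interferon-induced GTPase, had a wide day 1 gap of -1.09, from 718 in the control to 320 with RANKL, and read 116 and 161 at RANKL day 2 (-1.60, adjusted p = 0.3).

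Control cells moved less. In control day 2 minus start, with the same start arrays, the list's median was -0.10, 10 of 38 genes lay below the start on both arrays, against 15.4% of all genes, and none passed limma's test. RANKL day 2 lay below control day 2 on both arrays in 32 of 38 genes, against 20.5% of all genes, and 7 were called lower in that comparison, against 0.642% of all genes. At day 1 the RANKL array was below the control array in 27 of 38 genes, with a median gap of -0.23 against -0.06 over all genes.

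**Figure D3:**
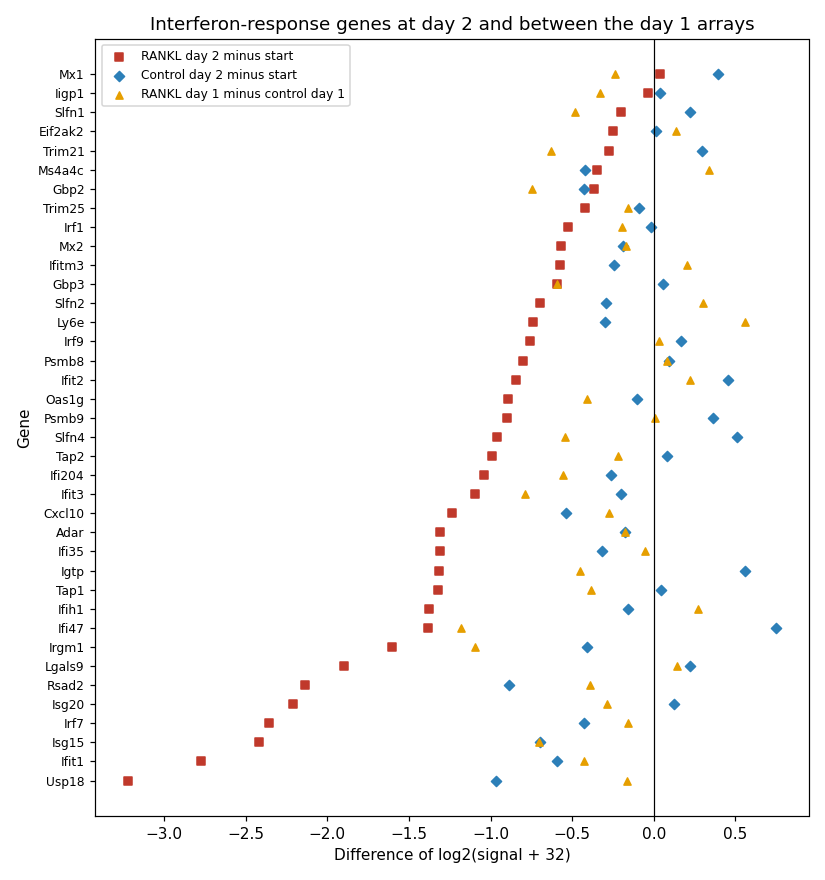
Differences of log2(signal + 32) for the 38 represented interferon-response genes: RANKL day 2 minus start, control day 2 minus start, which shares the start arrays, and RANKL day 1 minus control day 1, which is the gap between the start arrays. RANKL day 2 differences run from -3.22 (Usp18) to 0.04 (Mx1) with a median of -0.93, control day 2 differences have a median of -0.10 and day 1 gaps a median of -0.23.

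Promoters of 3 genes of this group are shown because they hold the letters read by interferon-activated factors. The sequences are RefSeq's on GRCm38.p6, in windows of 300 bases that span the annotated start, printed 5' to 3' on the gene's strand, with capitals marking the interferon-response element (GAAA, any 2 bases, GAAA) or its reverse complement.
Ifit1, chr19:34640639-34640938, strand +: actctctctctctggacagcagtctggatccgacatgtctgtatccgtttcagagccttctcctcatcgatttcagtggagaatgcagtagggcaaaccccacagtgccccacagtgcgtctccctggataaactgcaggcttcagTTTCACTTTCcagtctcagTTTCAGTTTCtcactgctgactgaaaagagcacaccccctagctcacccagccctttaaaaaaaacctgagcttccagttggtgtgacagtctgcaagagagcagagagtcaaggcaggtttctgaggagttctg
Isg15, chr4:156200769-156201068, strand -: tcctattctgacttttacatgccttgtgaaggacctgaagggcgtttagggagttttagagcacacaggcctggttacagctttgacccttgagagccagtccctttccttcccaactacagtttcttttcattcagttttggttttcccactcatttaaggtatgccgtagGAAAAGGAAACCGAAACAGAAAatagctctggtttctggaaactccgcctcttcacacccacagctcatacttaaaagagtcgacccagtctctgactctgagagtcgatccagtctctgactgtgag
Rsad2, chr12:26456403-26456702, strand -: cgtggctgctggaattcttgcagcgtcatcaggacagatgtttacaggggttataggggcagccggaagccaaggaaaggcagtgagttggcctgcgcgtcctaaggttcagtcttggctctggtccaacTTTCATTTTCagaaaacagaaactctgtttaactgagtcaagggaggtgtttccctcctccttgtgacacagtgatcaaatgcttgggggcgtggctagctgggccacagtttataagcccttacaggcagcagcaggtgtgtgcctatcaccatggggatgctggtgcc

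The first bases of the Ifit1 matches lie 104 and 85 bases before the start, those of the 3 overlapping Isg15 matches 78, 72 and 66 bases before it, and the Rsad2 match begins 120 bases before it. Rsad2, which encodes the antiviral enzyme viperin, was at 220 and 160 at day 1 and 7.63 and 31.3 at RANKL day 2 (-2.14, adjusted p = 0.123, day 1 gap -0.39). This element, searched on both strands with overlapping matches counted, occurs in 3.44% of 32851 promoters of this length. Counted by gene, it occurs in 3.99% of 27025 genes and in 15 of the 31 interferon-list genes that the table holds. The other elements searched, spelled out below, occur in 8 (AP-1), 1 (E-box), 25 (NFAT core) and 12 (PU.1) of these 31. Their shares of all genes are 8.97%, 8.09%, 64.4% and 31.3%. Of the 8 called genes the table holds 6, and 1 of them, Ifit1, has a match. Among these 6, TGANTCA (AP-1, 7.81% of promoters and 8.97% of genes) and CACGTG (the MITF and TFE E-box, 7.15% and 8.09%) had no match. GGAAA (the NFAT core, 61.3% and 64.4%) matched in 5 and GAGGAA (PU.1, 28.3% and 31.3%) in 4. A match is a run of letters in this window and no evidence that a factor binds there.

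Lgals9 encodes galectin-9, a sugar-binding immune regulator, and is also a member of the interferon list. Its dimmer probe set was at 135 and 131 at day 1 and at 19.4 and 16.8 at RANKL day 2, below the start on both arrays. The fall was -1.72 ± 0.27 (adjusted p = 0.0324, limma; day 1 gap -0.03), and it was lost in 13 of 24 alternatives, each of the 4 arrays being among those whose removal ended it (adjusted p of 0.123 to 0.26). The brighter probe set, which represents the gene, was at 953 and 1058 and then at 261 and 231 (-1.90, adjusted p = 0.104, day 1 gap 0.15). Against control day 2, at 1014 and 1363, its difference was -2.12 (adjusted p = 0.0285).

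Igf1 gave the smallest adjusted p of the comparison. It encodes insulin-like growth factor 1, a growth and survival factor that macrophages secrete. Its called probe set was at 1152 and 1455 on the control and RANKL arrays of day 1 and at 164 and 178 at RANKL day 2. Control cells of day 2 were at 2934 and 3135, a difference from the start that missed the threshold (1.21, adjusted p = 0.108). The fall with RANKL was -2.71 ± 0.21, 6.54-fold lower, with an adjusted p of 0.000119 in limma's fit and a day 1 gap of 0.33. It passed under all 25 alternatives. Against control day 2 the difference was -3.92 (adjusted p = 1.41e-06). RANKL cells held 237 and 190 at day 4 and 22.5 and 21.0 at day 5, so the level stayed low. The 2 probe sets of Igf1 differ, and the one that represents the gene was at 883 and 861 at day 1 and 746 and 607 at RANKL day 2 (-0.36, adjusted p = 0.622, day 1 gap -0.04).

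Scd1 encodes stearoyl-CoA desaturase 1, which makes monounsaturated fatty acids. The probe set that represents it was at 2833 and 2212 at day 1 and at 784 and 794 at RANKL day 2, against 2448 and 2734 in control cells of day 2. Both RANKL day 2 arrays lay far below both the start and the control. The fall was -1.63 ± 0.20, 3.09-fold lower (adjusted p = 0.00609, limma; day 1 gap -0.35), and the difference from control day 2 was -1.67 (adjusted p = 0.00443). Its other called probe set was at 1243 and 1034, then at 186 and 204 (-2.36 ± 0.30, adjusted p = 0.00609, day 1 gap -0.26). Another, dim one had the opposite sign (0.63, adjusted p = 0.769). Without the control day 1 array the adjusted p of the first of these was 0.0963, without the first and second RANKL day 2 arrays 0.0804 and 0.0586, and with the 4 compared arrays alone 0.0558. RANKL cells were at 1186 and 1831 at day 4 and 2089 and 1916 at day 5, so day 2 was the low point of the RANKL series.

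The sterol and lipid synthesis list that holds Scd1 had no other call. Of its 21 represented genes, 17 had a change below 0, the median was -0.18 and 11 lay below the start on both arrays, or 52.4%, against 15.5% of all genes. Idi1, an isoprenoid isomerase, was at 865 and 1287 at day 1 and 559 and 485 at RANKL day 2 (-0.98, adjusted p = 0.577, day 1 gap 0.56). The list's median stayed between -0.29 and -0.12 over the scalings, pseudocounts, covariate and fits without 1 of the 4 arrays.

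Pea15a encodes an adaptor that holds ERK kinases in the cytoplasm. It was at 296 and 343 at day 1, at 39.8 and 36.7 at RANKL day 2, and at 273 and 425 in control cells of day 2. The fall was -2.32 ± 0.34, 4.99-fold lower (adjusted p = 0.0214, limma), with a day 1 gap of 0.20, and the difference from control day 2 was -2.41 (adjusted p = 0.00807). Without the control or RANKL day 1 array the adjusted p was 0.0963 and 0.26, and without the first or second RANKL day 2 array 0.123 and 0.122. The call was lost in 7 of 25 alternatives, the others being the 4 compared arrays alone (0.104), a pseudocount of 100 (0.0935) and the replicate block (0.0518). RANKL cells read 628 and 508 at day 4 and 605 and 272 at day 5, so the low level was seen at day 2 alone. Pea15a was the one called member of the 21 ERK feedback and immediate early genes, whose median was -0.20.

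Ly6d, a GPI-anchored surface protein of lymphocyte precursors, gave the last call. Its dim probe set was at 7.10 and 8.19 at day 1 and at 57.0 and 71.4 at RANKL day 2 (1.28 ± 0.19, adjusted p = 0.0233, limma; day 1 gap 0.04). The probe set that represents the gene moved the other way in level, from 157 and 43.5 to 53.8 and 21.9 (-0.81, adjusted p = 0.746), with a day 1 gap of -1.32. The call was lost in 11 of 24 alternatives, among them each fit without 1 of the 4 arrays (adjusted p of 0.0804 to 0.26) and those without the first or second control day 4 array (0.0525 and 0.0542).

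Nfkb2 and Bcl3, named here as the control cells' largest called falls beside Ccl5, lay near the start with RANKL and were lower in control cells. They do not speak for their pathway, since of 24 represented genes of RANK and NF-kB signalling 2 were called lower in control day 2 minus start, against 0.0364% of all genes, 9 had a change above 0 and the median was -0.10. Nfkb2, the p100 and p52 subunit of the alternative NF-kB pathway, was at 1464 and 1429 at day 1, at 1536 and 1397 at RANKL day 2 and at 626 and 477 in control cells of day 2. RANKL day 2 overlapped the start (0.02, 95% interval -0.35 to 0.39, adjusted p = 0.992, day 1 gap -0.03). Control cells fell (-1.35 ± 0.17, adjusted p = 0.0281, limma), and RANKL exceeded control at day 2 by 1.37 (adjusted p = 0.00443). Bcl3, a nuclear partner of p50 and p52, showed the same order. It was at 664 and 646 at day 1, at 619 and 720 at RANKL day 2 and at 280 and 288 in control cells. Its difference from the start was 0.03 with RANKL (95% interval -0.30 to 0.36, adjusted p = 0.989, day 1 gap -0.04) and -1.12 in control cells (adjusted p = 0.0281). These intervals hold changes of up to 0.39 for Nfkb2 and 0.36 for Bcl3, so the data leave room for a small change. The control calls are themselves lost with the 4 arrays of that comparison alone, where no probe set passed limma's threshold and 967 had an unadjusted p under 0.05. They were also lost without the RANKL day 1 array, either control day 3 array or the second control day 4 array, where limma called 0 probe sets (733, 969, 971 and 929 with an unadjusted p under 0.05), and without the control day 1 array, where its single call was another probe set. Without the first control day 2 array 6 probe sets were called lower, of which 1 was among the 4, and without the second 8 were called higher and 0 lower (858 with an unadjusted p under 0.05), so the falls of Nfkb2, Bcl3 and Ccl5 were not called there.

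Nfatc1, the factor that drives osteoclast genes, was at 4410 and 4548 at day 1, at 5340 and 4632 at RANKL day 2 and at 2134 and 861 in control cells of day 2. Its difference from the start was 0.15 ± 0.35 (95% interval -0.61 to 0.91, adjusted p = 0.956, limma) with a day 1 gap of 0.04. RANKL exceeded control at day 2 by 1.85 (adjusted p = 0.03), while the control difference from the start, -1.70, did not pass (adjusted p = 0.252). Fos, an AP-1 factor upstream of Nfatc1, was at 4398 and 4149 at day 1 and 5632 and 5674 at RANKL day 2 (0.40, adjusted p = 0.701, day 1 gap -0.08). Mycl, a MYC family factor, was at 45.8 and 71.1 at day 1, at 355 and 278 at RANKL day 2 and at 22.2 and 23.2 in control cells. The difference of 1.95 ± 0.52 from the start did not pass (adjusted p = 0.262, day 1 gap 0.41), though it passed without the first or second RANKL day 5 array (adjusted p = 0.0342 and 0.0326), which read 22.2 and 209. Of 20 represented osteoclast transcription factors none was called, and the median was 0.14. Above the start lay 7 (35%, against 21.4% of all genes) and below it 2 (10%, against 15.5%).

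Irf8, Dusp6 and Dab2 differed between RANKL and control cells at day 2 and not, past the threshold, from the start. Irf8, a factor that represses Nfatc1, was at 281 and 420 at day 1, at 206 and 107 at RANKL day 2 and at 684 and 1068 in control cells. RANKL cells lay below the start and control cells above it, and neither difference passed (-1.05, adjusted p = 0.475, and 1.24, adjusted p = 0.456; day 1 gap 0.53). The difference between RANKL and control at day 2 was -2.29 (adjusted p = 0.0184, limma). Dusp6, a phosphatase of ERK, was at 113 and 178 at day 1, at 59.7 and 60.7 with RANKL and at 417 and 518 in control cells of day 2. It differed from the start by -0.92 (adjusted p = 0.622, day 1 gap 0.53) and from control day 2 by -2.43 (adjusted p = 0.0257). A dim Dusp6 probe set, at 17.3 and 3.90 with RANKL, differed from control day 2 by -0.08 (adjusted p = 0.967, day 1 gap -0.01). Dab2, an endocytic adaptor, was at 841 and 845 at day 1, at 308 and 308 with RANKL and at 2360 and 2330 in control cells. Its day 1 gap was 0.01, its difference from the start -1.36 ± 0.38 (adjusted p = 0.291) and that from control day 2 -2.80 (adjusted p = 0.00641). Of its dimmer probe sets, 1 also passed against control day 2 (-1.59, adjusted p = 0.0285, day 1 gap 0.68). The other, at 154 and 28.7 with RANKL, did not (-0.61, adjusted p = 0.733, day 1 gap -0.29). Of 17 represented negative regulators, Irf8 was the one called member in RANKL day 2 minus control day 2, against 0.642% of all genes called lower there. Their median was -0.16 with RANKL and 0.45 in control cells against the same start.

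**Figure D4:**
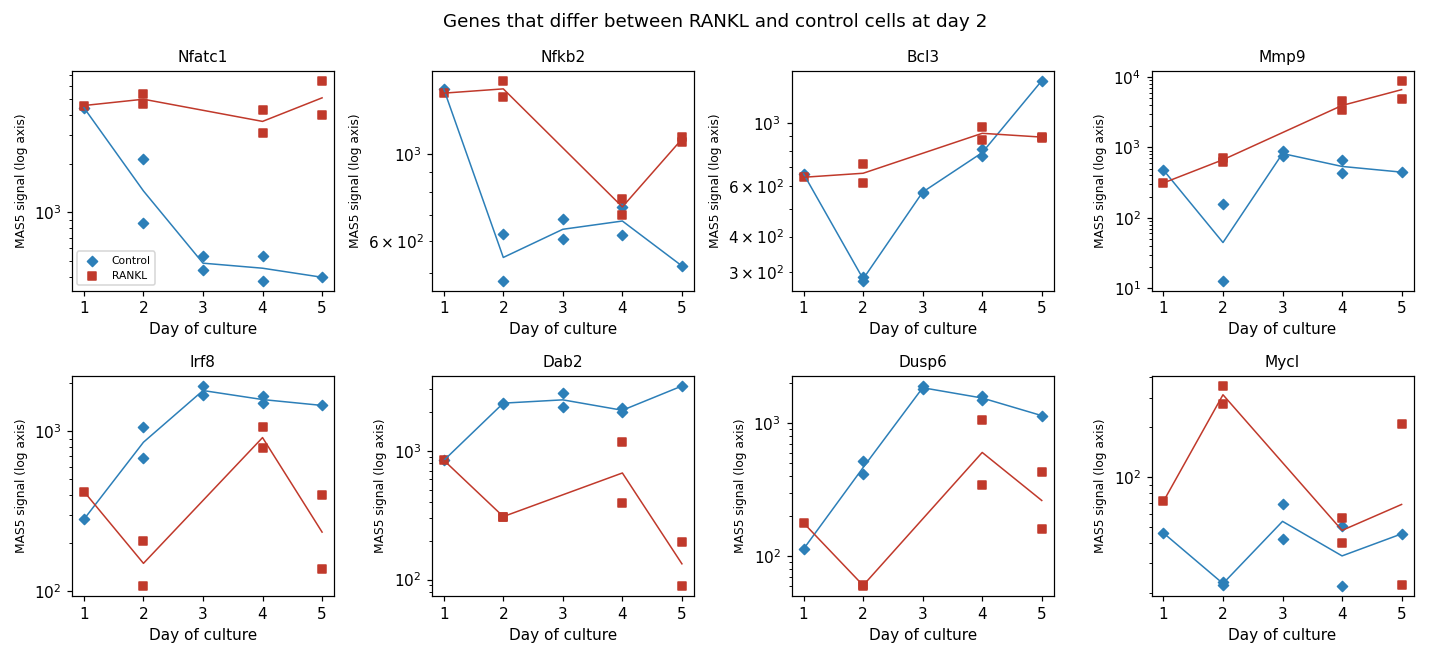
MAS5 signals on log axes against day of culture for 8 genes that did not pass the threshold against the start and differed between RANKL and control cells at day 2; points are arrays and lines join the geometric means of control and RANKL cells, with no RANKL value at day 3. Nfatc1, Nfkb2 and Bcl3 stay near their day 1 level at RANKL day 2 while control signals are lower, and Irf8, Dusp6 and Dab2 lie below day 1 with RANKL and above it without. Not all of these orders last. Control Bcl3 is at 571 and 575 at day 3 and 1410 at day 5, where RANKL cells are at 890 and 898. For Nfkb2, RANKL cells of day 4, at 771 and 699, overlap control cells, at 732 and 624. At day 5 they are at 1076 and 1108 against 520. For Irf8, RANKL cells of day 4, at 1066 and 784, are above day 1 and below control cells, at 1667 and 1504. For Dusp6 they are at 1057 and 344, also above day 1 and below control cells, at 1485 and 1616. Both genes are lower with RANKL than in the control array at day 5 too.

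The macrophage list had 1 call, Ccr1, and 12 of its 32 genes lay below the start on both RANKL day 2 arrays (37.5%, against 15.5% of all genes). Its median was -0.08 with RANKL and 0.35 in control cells, and against control day 2 it had 1 higher and 6 lower calls, against 0.351% and 0.642% of all genes. Adgre1, an adhesion receptor used to mark mouse macrophages, was at 221 and 207 at day 1, at 182 and 162 at RANKL day 2 and at 493 and 523 in control cells. The difference from the start was -0.27 (adjusted p = 0.744, day 1 gap -0.08) and that from control day 2 was -1.40 (adjusted p = 0.00443, limma). Itgam, the CD11b integrin chain, was at 142 and 128, then at 42.4 and 46.2 with RANKL and 205 and 297 without (-1.13 against the start, adjusted p = 0.265, day 1 gap -0.13). Csf1r, at 6504 and 9191 at day 1 and 6753 and 6763 at RANKL day 2, differed by -0.19 (adjusted p = 0.874, day 1 gap 0.50), and the sign turned without the RANKL day 1 array (0.05).

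Ccl5, a chemokine, was low on all 4 day 2 arrays. It was at 156 and 163 at day 1, at 38.9 and 40.7 at RANKL day 2 and at 20.2 and 21.1 in control cells. The RANKL difference of -1.42 ± 0.25 just missed the threshold (adjusted p = 0.0516, limma; day 1 gap 0.05), the control difference of -1.86 passed (adjusted p = 0.0281) and was lost in the same fits as those of Nfkb2 and Bcl3 where no lower call was made, and RANKL and control did not part past the threshold (0.45, adjusted p = 0.616). Tnf, an inflammatory cytokine, was at 973 and 505 at day 1 and 510 and 308 at RANKL day 2 (-0.78, adjusted p = 0.771), with a day 1 gap of -0.90 that exceeded its change. Mki67, a proliferation marker, was at 1033 and 576 and then at 854 and 488 (-0.24, day 1 gap -0.81).

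Some genes lay just outside the threshold and were picked out for that after their values were seen. Ak1, an adenylate kinase, was at 14.9 and 18.2 at day 1 and 125 and 133 at RANKL day 2 (1.73, adjusted p = 0.0516, limma; day 1 gap 0.10). Slc6a8, the creatine transporter, was at 25.5 and 39.5, then at 172 and 233 (1.86, adjusted p = 0.053, day 1 gap 0.31). Control cells of day 2 were near the start in both, and RANKL exceeded them by 1.55 for Ak1 (adjusted p = 0.0286) and 1.78 for Slc6a8 (adjusted p = 0.0257). Blvra, biliverdin reductase A, was at 200 and 208 at day 1 and 497 and 599 at RANKL day 2 (1.29, adjusted p = 0.0516, day 1 gap 0.05). It was as high in control cells, at 626 and 519, and RANKL and control differed by -0.06. Ctsl, the lysosomal cathepsin L, was at 3914 and 4241 at day 1, at 1953 and 2129 at RANKL day 2 and at 4516 and 3891 in control cells (-0.99 against the start, adjusted p = 0.077, day 1 gap 0.11). It was the lowest of 40 lysosome genes, whose median was 0.09.

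Metabolic lists gave small differences and no call. Of 55 represented genes of oxidative phosphorylation, 43 had a change above 0, with a median of 0.22, and 16 lay above and none below the start (29.1% against 21.4% of all genes above). The TCA cycle gave 22 of 24 above 0 and a median of 0.19. Hypoxia-response genes went the other way in sign, with 16 of 18 below 0, a median of -0.42 and 9 of 18 below the start, against 15.5% of all genes. Plin2, a lipid droplet coat protein of that list, was at 1726 and 2308 at day 1, at 977 and 1118 at RANKL day 2 and at 2859 and 2801 in control cells (-0.91, adjusted p = 0.47, day 1 gap 0.41). Glycolysis (18 genes) had a median of -0.03. Medians over the scalings, pseudocounts, covariate and fits without 1 of the 4 arrays ran from 0.03 to 0.38 for oxidative phosphorylation and from -0.53 to -0.25 for hypoxia response. The lowest for oxidative phosphorylation, 0.03, came without the second RANKL day 2 array. There 28 of its 55 genes were above 0, and the median of all probe sets was higher, at 0.10.

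The rest of the lists had medians between -0.09 and 0.30, against 0.05 over all genes, and the calls among them were Ccr1 and Itgb7, described above. DNA replication (38 genes) had a median of -0.03 and mitosis (37 genes) -0.09. Above the start lay 5 and 6 genes (13.2% and 16.2%, against 21.4% of all genes). Below it lay 11 and 8 (28.9% and 21.6%, against 15.5%). Growth arrest genes were at 0.05, RANK and NF-kB signalling at 0.05, podosome and cytoskeleton at 0.03, cell fusion at 0.03 and inflammatory mediators, which hold Ccr1, at 0.01. Integrin chains had Itgb7 as their call and a median of -0.06. The unfolded-protein and integrated stress response stood at -0.08, the oxidative stress response at 0.22, iron uptake and haem at 0.12, cytosolic ribosomal proteins at 0.16, endocytic adaptors at -0.07, semaphorins and their receptors at 0.22 and reference genes at 0.07. Over 9 other settings (pseudocounts, scalings, the covariate and fits without 1 of the 4 arrays), 18 of the 34 list medians changed sign, among them those of ribosomal proteins (-0.07 to 0.46), ERK feedback genes (-0.30 to 0.05), lysosome (-0.01 to 0.15), glycolysis (-0.25 to 0.05) and DNA replication (-0.14 to 0.03). Markers of other cells had medians of 0.12 (stromal and osteoblast), 0.19 (T cell), 0.30 (B cell), 0.06 (neutrophil), 0.03 (erythroid) and 0.18 (dendritic).

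**Figure D5:**
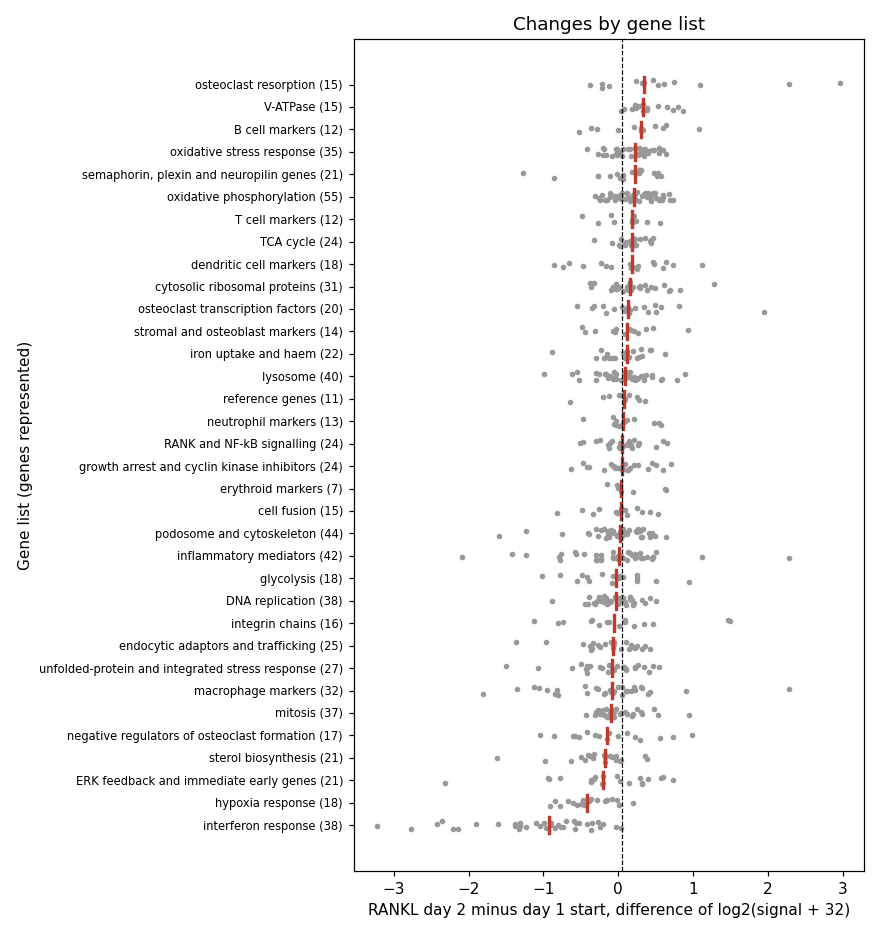
RANKL day 2 minus start, as a difference of log2(signal + 32), for every represented gene of the 34 lists; grey points are genes, red bars are list medians, the number of represented genes stands after each list name, and the dashed line is the median of all genes (0.05). Interferon response stands lowest with a median of -0.93, hypoxia response follows at -0.42, and osteoclast resorption and V-ATPase are highest at 0.35 and 0.33.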

How the data were processed

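The authors measured biotin-labelled RNA on Affymetrix arrays and deposited probe set signals as linear intensity values made with MAS5, per the submitters' processing notes. Its version is not given in the sources used here. The 2% trimmed mean is the same on every array, so the authors had scaled them, and no further normalization was applied. Of 12488 probe sets, 66 manufacturer's controls were left out and 12422 were tested as log2(signal + 32), with no filter on dim signals. The probe annotation names 1 gene for 10833, several for 396 and none for 1193, and the probe set brightest over all arrays, by mean log2 signal, stands for a gene. A linear model with 8 groups, the 2 day 1 arrays forming 1 of them, described all 15 arrays. It was run in R 4.3.3 with the lmFit and eBayes functions of limma 3.58.1, the prior variance following the mean signal, and had 7 residual and 5.586 prior degrees of freedom. Tests were two-sided, with Benjamini-Hochberg adjustment over all 12422 probe sets and a threshold of 0.05. The number of arrays, 2 a group or 1, limits the precision. 

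The comparison, its 34 gene lists (954 genes, 768 represented) and the panel were chosen with earlier results of these data known. Named genes are those with the largest called changes (up to 12 in each direction), the panel, up to 4 called members of each list, the 3 called genes with the widest day 1 gap and the control cells' largest changes. List members that did not pass are given as values, chosen after these were seen, and the text says where another gene falls outside the rule. Alternatives were pseudocounts of 1 and 100, quantile normalization, centring on the median, the upper 50% of probe sets, a prior variance without the trend, replicate numbers as a block, separate day 1 groups, the beta-actin ratio as a covariate, the compared arrays alone, and each array left out. Reading every probe set of a named gene was added after the data were seen. Over 15 pairs of groups, replicate differences correlated at -0.17 to 0.12, so arrays of equal number shared little deviation. Whether they shared a culture or run cannot be told from this. The labels give no batch or date.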

Additional observations from a re-analysis of the deposited data

Results flagged for a closer look

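Among the called probe sets and the genes chosen by the naming rule, list members given only as values left out, 19 probe sets stood out because RANKL day 2 minus start and control day 2 minus start differed by limma's test of the difference itself, which is RANKL day 2 minus control day 2. Higher with RANKL were Acp5 (4.98), Mmp9 (2.93, its brighter probe set), Mycl (2.66), Ctsk (2.14), Ccr1 (2.10), Nfatc1 (1.85), Nfkb2 (1.37), Bcl3 (1.15), Itgb7 (1.15, its brighter probe set) and Ly6d (1.11, its dim probe set). Lower with RANKL were Igf1 (-3.92, its called probe set), Dab2 (-2.80, its brightest probe set), Scd1 (-2.51 and -1.67 by its 2 called probe sets), Dusp6 (-2.43, its brighter probe set), Pea15a (-2.41), Irf8 (-2.29), Ifit1 (-2.18) and Lgals9 (-1.38, its dimmer probe set). Among these, Mmp9, Mycl, Nfatc1, Nfkb2, Bcl3, Dab2, Dusp6 and Irf8 did not pass against the start, and of the called probe sets Usp18 alone did not pass against control day 2. No group of this comparison has over 2 arrays, so single outlying arrays could not be looked for.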

How the results depend on the processing

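Of 25 alternatives, 17 left the count of 12 calls within 1.5 times, which does not say that the same probe sets passed: with the 4 compared arrays alone the count was 11, of which 5 were among the 12. It was 25 with a pseudocount of 1, 22 among the upper 50% of probe sets, and ran from 1 to 28 when each array was left out in turn. The fit with the beta-actin covariate gave 8 calls. The fit with the replicate block gave 9 calls, and 97 in place of 108 for RANKL day 2 minus control day 2. That comparison fell to 38 calls with the beta-actin covariate and 45 with its 4 arrays alone, and ran from 19 to 149 with an array left out. The 4 calls of control day 2 minus start became 0 in limma's fit with the replicate block, with separate day 1 groups and with the 4 arrays alone, where 938, 1034 and 967 probe sets had an unadjusted p under 0.05, and ran from 0 to 8 with an array left out. Arrays of equal replicate number shared little deviation, and whether the block fits better was not tested. Centring arrays on their median moved the median of all probe sets by -0.11. Under it Bcl3 (-0.0793) and Nfkb2 (-0.0872) turned negative. Signs near 0 also turned when an array was left out: without the control day 1 array for Mki67 and Tnfrsf11a (0.16 and -0.0151), without the RANKL day 1 array for Csf1r (0.0549), without the first RANKL day 2 array for Itgb3 (0.27), Nfkb2 (-0.0487) and Tnfrsf11a (-0.11), and without the second for Mki67 (0.14) and Bcl3 (-0.078). Over all arrays left out, Bcl3 ran from -0.078 to 0.13, Csf1r from -0.44 to 0.0549, Itgb3 from -0.53 to 0.27, Mki67 from -0.65 to 0.16, Nfkb2 from -0.0487 to 0.0854 and Tnfrsf11a from -0.11 to 0.35. No called gene reversed under any alternative. Signals under 32, as for Ifit1 and Ly6d, carry little information on fold, and the changes of Ifit1 ran from -4.56 with a pseudocount of 1 to -1.73 with 100. The cause of these shifts was not tested.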
